A study of Mus musculus with 11 samples.

Results

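The cytosolic ribosomal protein genes encode the protein part of the ribosomes that translate nuclear-encoded messages. They were taken from the deposited count table by gene symbol: protein-coding genes named Rpl or Rps with a number and at most a short suffix, together with Rplp0, Rplp1, Rplp2 and Rpsa, and without the ribosomal protein S6 kinases. The rule found 83 of the 55487 genes in the table, 51 of the large subunit and 32 of the small subunit. Of these, 80 had enough counts to be tested and 3 did not: Rpl10l had a count of 0 in every library, and Rpl3l and Rpl39l never had more than 2 counts. The rule used names alone and no measured value.

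Gene expression was measured by sequencing of total RNA, after removal of ribosomal RNA, in bone marrow-derived macrophages, which are grown in culture from marrow cells. The marrow came from C57BL/6J mice of 2 to 5 months, and every culture received the same CMG-conditioned medium. Of the 11 libraries, 7 were controls with no CYR61 added and 4 came from cells given 0.5 µg/ml CYR61 for 24 h. CYR61 (CCN1) is a matricellular protein that cells secrete and that engages integrins. The labels give no vehicle for the controls and do not say whether libraries of a group came from separate animals or cultures, so the spread behind each p-value may be technical only.

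A ribosome holds 1 copy of most of its proteins, with the acidic stalk proteins Rplp1 and Rplp2 present in several copies. Ribosomal protein messages are among the most abundant and most evenly expressed in growing cells, and many begin with a pyrimidine tract that lets growth signals through mTOR and the RNA-binding protein Larp1 switch their translation. That switch acts mainly on translation, while the counts measure the amount of message.

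The libraries held 14912123 to 21047654 estimated counts. Levels are given in CPM, which puts all libraries on the same total, after adjustment by TMM, a method that sets library factors from the bulk of genes. The factors were lower in every CYR61 library (0.971 to 0.993) than in any control library (1.00 to 1.02), so TMM raised all values of the treated libraries relative to plain library size. All 8 macrophage markers examined were detected, with Lyz2 at a mean of 17244 CPM in controls. With TMM, 6 of the 8 were higher with CYR61 at an adjusted p under 0.05 (edgeR), beside 5.33% of all genes. With plain library size 4 of the 8 were, beside 3.5%. Markers of other cell types were low: 1 of 6 neutrophil, 1 of 6 T cell, 1 of 5 B cell and 0 of 6 stromal markers had enough counts to test, and Ly6g, Cd3e, Cd3g and Lum were at 0 in every library. The 6 neutrophil markers summed to 0.634 to 1.45 CPM in controls and 1.61 to 1.97 CPM with CYR61, and the 1 tested, S100a8, was higher (adjusted p = 0.0213, edgeR). Endothelial markers had the highest sum among the other types, 4.88 to 6.68 CPM in controls and 4.44 to 5.54 CPM with CYR61, most of it Kdr. Of the 4 endothelial, 4 dendritic, 5 erythroid and 5 mast cell markers, 1, 2, 1 and 0 could be tested, and 0 passed. Their part in the results below was not tested. In bulk RNA, a change in the number of cells of a type and a change in RNA per cell cannot be told apart.

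Per kilobase of transcript, the ribosomal protein genes lay close together. Over all 11 libraries the median of the 77 core genes, those without the paralogs named with a trailing l or l1, was 307 CPM per kb, and 64 of the 77 lay within 2-fold of it. Rplp1, an acidic protein of the stalk that recruits elongation factors, was highest at 1183 CPM per kb. Rpl41, which encodes a very small basic protein, followed at 970, and the second stalk protein Rplp2 at 708. Rps28 reached 679 CPM per kb, Rplp0, the base of the stalk, 581 and Rps29 565. At the other end, Rps20 had 46.9 CPM per kb, and the paralogs Rpl7l1 and Rpl22l1 had 46.7 and 24.8. The value of Rps20 rests on an annotated principal transcript of 3706 bases, against a median of 729 for the core genes. The highest core gene was 25.2 times the lowest with the shortest principal transcript as length and 42.2 times with the longest, so the order depends on the annotation; the shortest was chosen after the lengths had been seen.

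**Figure D1:**
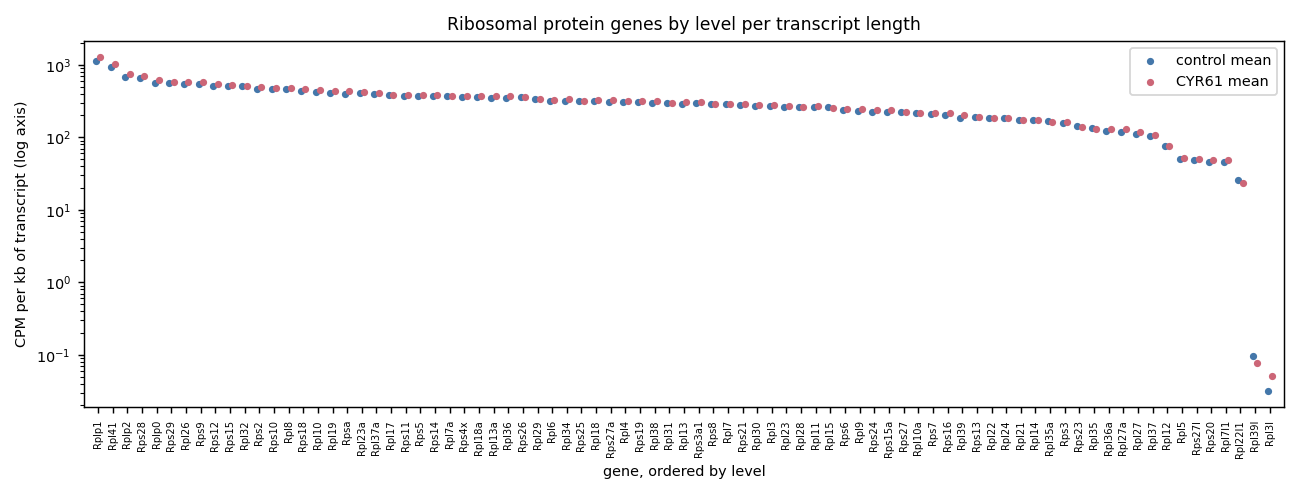
Mean level of the ribosomal protein genes with counts, in CPM per kb of transcript on a log axis, for 7 control (blue) and 4 CYR61 (red) libraries, ordered by level. The points of both groups lie next to each other for every tested gene shown, most genes lie within 2-fold of 307 CPM per kb, and Rpl39l and Rpl3l lie far below.

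The messages of the ribosomal proteins differed little between CYR61 and control macrophages. In edgeR's quasi-likelihood test with Benjamini-Hochberg adjustment over 15135 genes, 4 of the 80 tested genes were higher with CYR61 at an adjusted p under 0.05 and 0 were lower. Of all genes tested, 5.33% were higher and 2.63% lower (7.96% in either direction). The share of ribosomal protein genes that were higher, 5%, was near that of all genes. It was below the 13.8% of other genes with at least 60 CPM. The 4 were Rpsa, Rps18, Rplp0 and Rplp1, 2 of each subunit, with folds of 1.08 to 1.11. Leaving out 1 library at a time gave counts from 1 to 10: 10 without CYR61 replicate 1, 2 without CYR61 replicate 2 or 4, and 1 without CYR61 replicate 3 or control replicate 1, 3, 4 or 5. Of the 4 genes, Rpsa alone was called in all 11 of these fits. At an unadjusted p under 0.05, 17 were higher and 1 lower, beside 11.2% and 9.26% of all genes. In the authors' deposited table, 16 of the 80 were higher at an adjusted p under 0.05 and 0 lower, beside 7.85% and 4.44% of its 13999 genes.

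The log2 fold changes of the 80 genes ran from -0.16 for Rpl22l1 to 0.16 for Rplp1. Their median was 0.05, while that of all genes tested was -0.008, and 69 of the 80 lay above 0 beside 47.5% of all genes. The large and small subunits had the same median to within rounding, 0.049 and 0.051. For 78 of the 80 genes the estimated fold lay within 10% of no change, and for all 80 the 95% interval lay within a change of 25%. The widest limits were -0.29, for Rpl22l1, and 0.25, for Rplp1. No tested member had fewer than 219 counts in a library and the largest count was 16961. Pairs of libraries of 1 group differed by more than counting error, with a chi-square of 2.2 to 19.1 per member. Among genes of like abundance, at least 60 CPM, 4 of 78 members were higher. Of the 3106 others at that level, 13.8% were higher and 5.02% lower, with a median log2 fold change of 0.014. The SD as percent of the mean had a median over these 78 members of 3.92% in controls and 4.53% with CYR61. Over the 3106 others it was 3.58% and 3.8%, so the members were not more even than those genes here. The level of 60 CPM was chosen after the members' values had been seen.

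**Figure D2:**
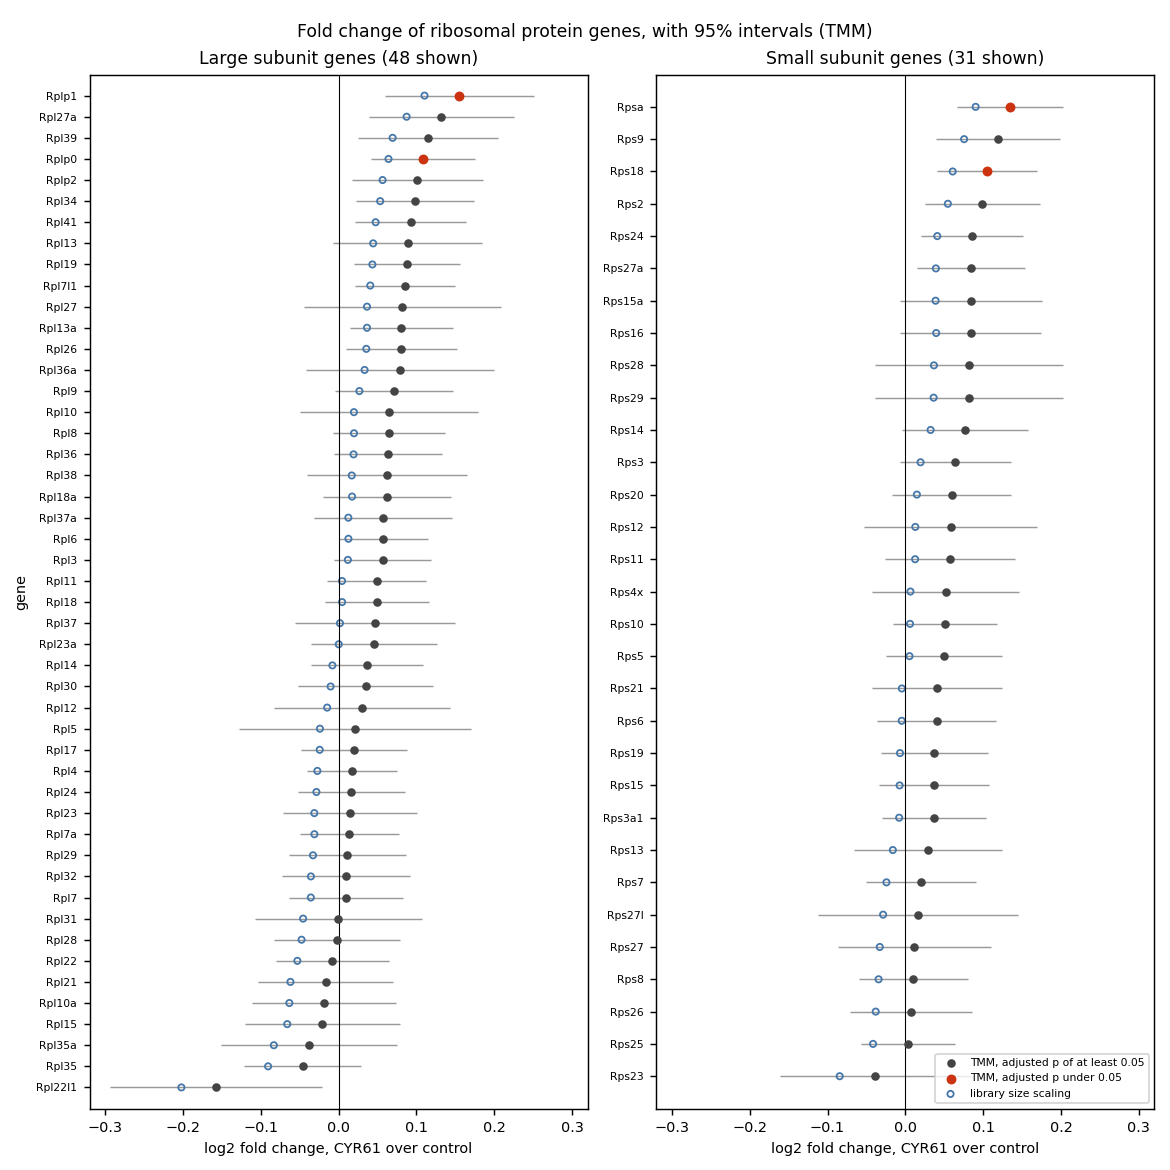
Log2 fold change of CYR61 over control for 48 large and 31 small subunit genes, with 95% intervals under TMM scaling; open circles give the value under library size scaling, and 1 of the 32 tested small subunit genes is not shown. Intervals are narrow, most filled points lie a little to the right of 0, the 4 red points passed an adjusted p of 0.05, and the open circles lie around 0.

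Rpsa, a small subunit protein also known as the laminin receptor precursor, was the most stable of the 4 calls. Its level ran from 592 through a median of 636 to 656 CPM in the 7 controls. In the 4 CYR61 libraries it was 712, 675, 675 and 718 CPM. Every treated library lay above every control. The log2 fold change was 0.13 ± 0.03 (SE) with an adjusted p of 0.0133 in edgeR's test. The call was lost in 3 of 27 alternative settings, which were both library size scalings and the stricter threshold of 0.01.

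Rps18 lies in the head of the small subunit. It measured 231, 240 and 249 CPM at the lowest, median and highest control, and 264, 255, 254 and 266 CPM with CYR61. The groups did not overlap, and the log2 fold change was 0.11 ± 0.03 (SE; adjusted p = 0.0407, edgeR). This call was lost in 16 of 27 settings, among them leaving out any 1 of the CYR61 libraries or control replicate 1, 3, 4 or 5 (adjusted p of 0.0593 to 0.109).

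Rplp0 forms the base of the stalk on the large subunit and carries Rplp1 and Rplp2. Control levels of Rplp0 were 715 at the lowest, 776 at the median and 793 CPM at the highest, and CYR61 levels were 820, 811, 828 and 849 CPM. Again no control reached the treated libraries (log2 fold change 0.11 ± 0.03 SE, adjusted p = 0.0440, edgeR), though the call was lost in 13 settings. These included leaving out CYR61 replicate 2, 3 or 4 or control replicate 1, 3, 4 or 5 (adjusted p of 0.0592 to 0.119). Rplp1 ran from 509 through 565 to 625 CPM in controls and was 597, 620, 643 and 664 CPM with CYR61. Its groups overlapped: CYR61 replicates 1 and 2 fell below the highest control. The log2 fold change of Rplp1 was 0.16 ± 0.05 (SE; adjusted p = 0.0447, edgeR), and the call was lost in 14 settings, among them 9 of the 11 that left out a library (all but control replicate 7 and CYR61 replicate 1; adjusted p of 0.0505 to 0.141). Rplp2 stood at 270, 290 and 317 CPM in controls and at 307, 308, 318 and 313 CPM with CYR61, with a log2 fold change of 0.10 ± 0.04 (SE) that did not pass (adjusted p = 0.147, edgeR).

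In all, 7 of the 80 genes had every CYR61 library above every control, beside 4.65% of all genes, and 0 had every one below, beside 2.5%. Besides Rpsa, Rps18 and Rplp0 these were Rps9, Rpl13a, Rpl19 and Rpl6, none of which passed the adjusted threshold. Rps9 measured 389, 408 and 414 CPM at the lowest, median and highest control and 483, 434, 427 and 415 CPM with CYR61 (adjusted p = 0.0628, edgeR). Its highest value was in CYR61 replicate 1 and its lowest treated value, in replicate 4, was next to the highest control. Rpl13a, known in macrophages for a second role as a translation silencer after interferon-gamma, ran from 361 to 375 CPM in controls and was 419, 376, 378 and 391 CPM with CYR61 (adjusted p = 0.145, edgeR).

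**Figure D3:**
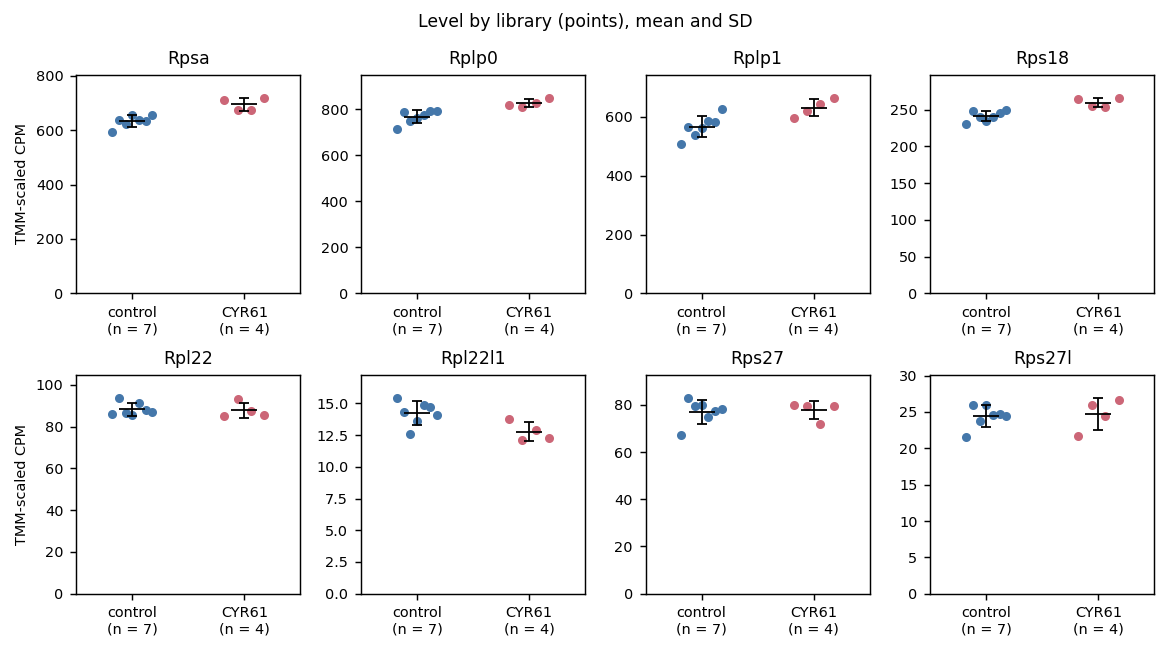
TMM-scaled CPM in each library (points) with mean and SD for the 4 called genes (top) and for 2 paralog pairs (bottom), each axis starting at 0; control n = 7, CYR61 n = 4. The treated points of Rpsa, Rplp0 and Rps18 lie above all controls, those of Rplp1 overlap them, and Rpl22l1 is lower on average with overlapping groups.

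The start regions of members that illustrate the pyrimidine tract are shown because this is the sequence through which ribosomal protein messages are known to be controlled together. The sequences are from RefSeq's promoter table for GRCm38.p6, 30 bases each on the strand of the gene. Capitals mark the longest run that begins with C and holds only C and T for at least 8 bases within 50 bases on either side of the annotated start. Of the 3 called genes in that table, Rps18 has such a run, beginning 2 bases before its annotated start, and Rpsa and Rplp0, shown by windows centred on the start, have none in the 100 bases searched. Rps6, the substrate of the ribosomal S6 kinases, and Rps9, Rpl13a and Rps27 have one, as does Rpl22l1, the member with the lowest fold change.
Rps18, chr17:33955648-33955677, minus strand: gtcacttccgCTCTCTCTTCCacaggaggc
Rpsa, chr9:120127751-120127780, plus strand: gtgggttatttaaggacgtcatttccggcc
Rplp0, chr5:115559452-115559481, plus strand: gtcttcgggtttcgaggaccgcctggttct
Rps6, chr4:86857349-86857378, minus strand: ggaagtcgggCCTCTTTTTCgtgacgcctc
Rps9, chr7:3704025-3704054, plus strand: aaccgccttgtCTCTCTTTgtctcgggcct
Rpl13a, chr7:45128722-45128751, minus strand: cgacaagaCCTCCTCCTTTCCCaggcggct
Rps27, chr3:90213632-90213661, minus strand: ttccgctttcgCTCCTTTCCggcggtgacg
Rpl22l1, chr3:28805500-28805529, plus strand: gcaagcccgttCTCTTCCCacggctgcagc

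Such a run stood near a start of 52 of the 63 members in the table (82.5%) and of 32% of its 27025 genes. Only the strand of the gene was searched, the definition was set after several windows had been read, and a gene with several starts counts where any start has a run. A run is a match of letters and not a measured site, and no match says only that these letters are not in the window.

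The size of the group's shift depended on how libraries were scaled. With plain library size, 0 of the 80 genes were higher and 0 lower at an adjusted p under 0.05, beside 3.5% and 6.2% of all genes. At an unadjusted p under 0.05, 2 were higher and 3 lower, beside 6.46% and 17.5% of all genes. Only 1 gene had every CYR61 library above every control under library size, beside 2.77% of all genes, and 0 had every one below, beside 5.03%. DESeq2 with its own size factors called 7 higher and limma-voom with TMM factors 4. The members' median log2 fold change was 0.006 under library size and 45 of the 80 lay above 0, beside a median of -0.052 and 32.9% above 0 for all genes. The distance between the members' median and the median of all genes was 0.058 under either scaling. It was 0.038 once trends with GC content and length were removed per library. Of Rpsa, Rps18, Rplp0 and Rplp1, only Rpsa kept its call with that correction. The tested members had a median transcript length of 705 bases, against 3477 for the 3106 other genes with at least 60 CPM. Scaling multiplies every gene of a library by the same factor, so TMM and library size had to give nearly the same distance. Their equal distances are therefore no separate result. Only the position relative to 0 could differ between them.

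Summed over the 83 genes, the ribosomal proteins took 1.88 ± 0.0457% of counts in controls (SD, n = 7) and 1.90 ± 0.031% with CYR61 (SD, n = 4), with overlapping ranges of 1.82 to 1.93% and 1.88 to 1.95%. With TMM scaling the sums were 18659 ± 504 and 19446 ± 483 CPM (SD), ranging from 17796 to 19194 in controls and standing at 18945, 19516, 19244 and 20081 in CYR61 replicates 1 to 4. Replicate 1 thus fell within the control range and the other three above it. CYR61 replicate 4, which had the highest sum, also had the highest share of counts in ribosomal RNA genes, 2.47% against 0.26 to 0.884% in the other 10 libraries. The part of ribosomal RNA in that sum was not tested; without mitochondrial and ribosomal RNA genes in the total, the groups' shares were 1.92 ± 0.0462% and 1.95 ± 0.054% (SD).

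**Figure D4:**
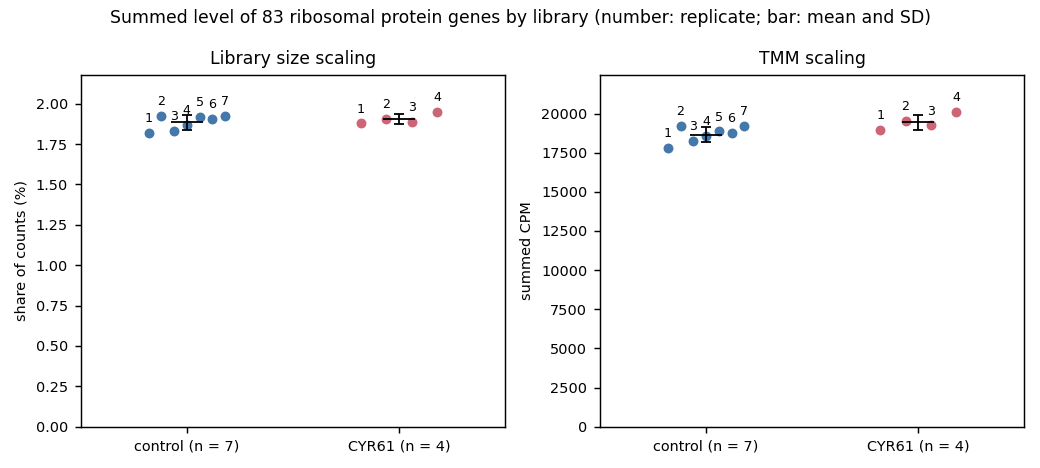
Summed level of the 83 ribosomal protein genes in each library, as percent of counts (left) and as TMM-scaled CPM (right), with mean and SD and the replicate number above each point. The groups overlap on the left, and on the right CYR61 replicate 1 lies among the controls and replicates 2 to 4 above them.

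In some libraries of both groups, most of the genes lay to the same side of their control mean. In control replicate 1, only 5 of the 80 genes lay above it, with a median deviation of -0.062 log2. In control replicate 2, 77 of the 80 did, with 0.043. The counts in control replicates 3 to 7 were 18, 36, 53, 43 and 58. In CYR61 replicate 4, 73 lay above the control mean with a median of 0.10, and in replicates 2 and 3 76 and 63 did. In CYR61 replicate 1 the count was 41 and the median 0.003. Genes outside the group were not counted in this way.

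CYR61 replicate 1 stood apart by the scatter among the genes rather than by their median. The interquartile range of the 80 deviations was 0.183 log2 there and 0.044 to 0.089 in the other 10 libraries. Rps23 was lowest at -0.28, while Rps9 was highest at 0.26 and Rps16 next at 0.20. Genes outside the group with at least 60 CPM also scattered most in that library, with an interquartile range of 0.164 against 0.046 to 0.137 elsewhere. Without replicate 1, the count of members higher rose from 4 to 10, and without replicate 4 it was 2.

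**Figure D5:**
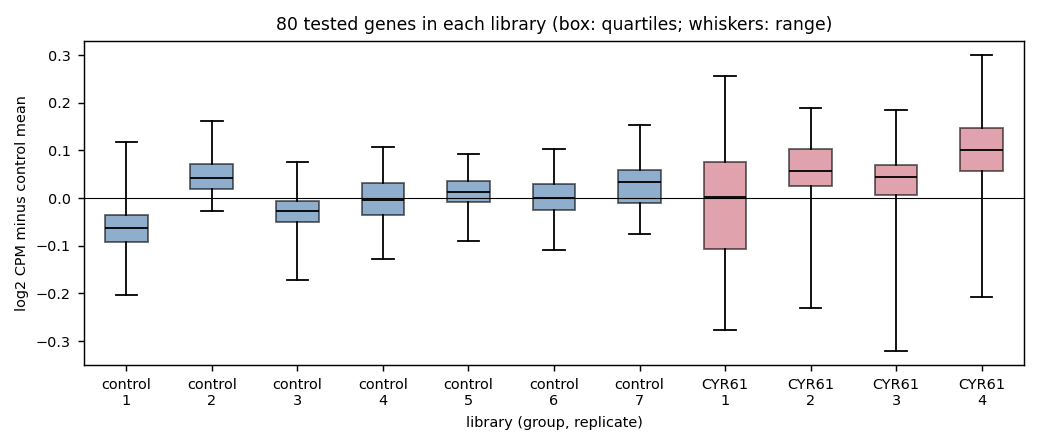
Log2 CPM of the 80 tested ribosomal protein genes in each library minus each gene's control mean; boxes give quartiles, the line the median and whiskers the range. Control replicate 1 lies low, CYR61 replicates 2 to 4 lie above 0, and CYR61 replicate 1 is centred near 0 with the widest box.

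Several ribosomal protein genes have a second copy that differs in sequence and in the tissue where it is used. Rpl10l, Rpl3l and Rpl39l, known from testis or muscle, were at or near 0 in these macrophages, where Rpl10, Rpl3 and Rpl39 had control means of 342, 367 and 113 CPM. Rpl22l1, whose coding sequence is 68.2% identical to that of Rpl22, was 12.6 at the lowest, 14.3 at the median and 15.4 CPM at the highest control, and 13.8, 12.1, 12.9 and 12.3 CPM with CYR61. The groups of Rpl22l1 overlapped and the log2 fold change of -0.16 ± 0.06 (SE) did not pass (adjusted p = 0.166, edgeR). Rpl22 itself stood at 88.3 ± 3.04 CPM in controls and 87.8 ± 3.69 CPM with CYR61 (SD), a log2 fold change of -0.01 ± 0.03 (SE). The difference between the changes of the pair was not tested.

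Rps27l, known as a p53 target, measured 24.4 ± 1.53 CPM in controls (SD, n = 7) and 24.7 ± 2.16 CPM with CYR61 (SD, n = 4). Its partner Rps27, 76.1% identical in coding sequence, measured 77.1 ± 5.01 and 77.7 ± 3.8 CPM (SD). Neither differed by more than its spread. Rpl7l1 is 54.1% identical to Rpl7 in coding sequence. It was 59.9 ± 1.54 CPM in controls and 63.6 ± 1.27 CPM with CYR61 (SD; adjusted p = 0.106, edgeR), beside 333 ± 6.94 and 335 ± 19.6 CPM for Rpl7. Rpl36al, which the name rule leaves out, is 87.9% identical to Rpl36a in coding sequence. It stood at 52.4 ± 2 and 56.4 ± 2.16 CPM (SD; adjusted p = 0.0898, edgeR).

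Several other members are known from textbooks for more than a place in the ribosome, and the 4 described here, chosen after their values were seen, did not pass the threshold. Rpl5 and Rpl11, which bind Mdm2 when ribosome assembly fails, had log2 fold changes of 0.02 ± 0.07 and 0.05 ± 0.03 (SE). Rpl5 was 104, 110, 82.5 and 121 CPM in the 4 CYR61 libraries and 95.5 to 111 CPM in controls, so the treated libraries lay on both sides. Rps6 was 215, 204, 205 and 227 CPM with CYR61 and 196 to 215 CPM in controls. Rps27a, which is made as a fusion with ubiquitin, was 193, 212, 206 and 217 CPM with CYR61 and 188 to 199 CPM in controls (adjusted p = 0.145, edgeR).

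Other subunits and the machinery around the ribosome came from lists chosen with earlier results of these data known. Of the 3 ribosomal proteins without an Rp name, 0 passed. Rack1, a scaffold on the small subunit, was 406, 437 and 448 CPM at the lowest, median and highest control and 454, 470, 465 and 467 CPM with CYR61, and its adjusted p was 0.0507 in edgeR's test. Rack1 did pass in 10 of 27 alternative settings, though not under library size scaling. Fau, made as a fusion with a ubiquitin-like protein, was 256 ± 12.5 against 260 ± 12.3 CPM (SD).

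In all genes, the shares to set beside the counts that follow are 5.33% higher and 2.63% lower under TMM, and 3.5% and 6.2% under library size. Of a list of 9 elongation factors and related genes, release factors among them, 2 rose and 0 fell under TMM. Under library size 1 rose and 0 fell. Eif5a, which relieves ribosomes stalled at prolines, ran from 146 to 167 CPM in controls and was 179, 179, 178 and 179 CPM with CYR61. Its log2 fold change of 0.22 ± 0.03 (SE; adjusted p = 0.000325, edgeR) exceeded that of every ribosomal protein gene, and the call held in all 27 settings. Eef1g, a subunit of the exchange factor of Eef1a, rose from 133 ± 3.36 to 143 ± 3.67 CPM (SD; adjusted p = 0.0269, edgeR), a call lost without CYR61 replicate 2 or 3 or control replicate 2 or 3 (adjusted p of 0.0522 to 0.118). Of 36 initiation factors, 1 rose under TMM, Eif6, which keeps the subunits apart (37.2 ± 0.497 against 41.8 ± 2.43 CPM, SD; adjusted p = 0.0104, edgeR). Under library size scaling 0 initiation factors rose and 2 fell.

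Among 8 other messages listed from textbooks as having a pyrimidine tract, 1 rose, the filament protein Vim (1935 ± 75 against 2094 ± 42.7 CPM, SD; adjusted p = 0.0344, edgeR). The tract itself was not checked for these 8, and the list is not a full set of such messages. The Vim call was lost without CYR61 replicate 3 or 4 or control replicate 2, 3 or 5 (adjusted p of 0.0563 to 0.109). Tpt1, another message of the list, was 1410 ± 40.3 against 1385 ± 55 CPM (SD; adjusted p = 0.711, edgeR). Under library size 0 of the 8 passed. Of 21 tested regulators of these messages and of growth, 0 rose and 3 fell under library size. Under TMM 0 rose and 1 fell, the S6 kinase family member Rps6ka2 (22.6 ± 0.747 against 19.9 ± 1.39 CPM, SD; adjusted p = 0.032, edgeR). It was lost without CYR61 replicate 2, 3 or 4 or control replicate 1, 3 or 5 (adjusted p of 0.0505 to 0.157). Larp1 was 128 ± 3.94 against 137 ± 3.15 CPM (SD; adjusted p = 0.0585, edgeR) and Myc was 2.21 ± 0.299 against 1.56 ± 0.27 CPM (SD; adjusted p = 0.0735, edgeR).

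Of 49 ribosome biogenesis genes, 1 rose, Heatr1, which acts in ribosomal RNA synthesis (31.3 ± 2.32 against 35.8 ± 1.69 CPM, SD; adjusted p = 0.0383, edgeR). The Heatr1 call was lost in 8 of 11 fits that left out a library, all but those without control replicate 2 or 7 or CYR61 replicate 1 (adjusted p of 0.0578 to 0.134). Under library size scaling 0 rose and 2 fell. Of 12 ribosomal protein chaperones and importers, 0 passed. Of 12 genes of ribosome quality control and stress, 0 rose and 3 fell under library size. Under TMM 0 rose and 1 fell, Map3k20, the kinase that senses collided ribosomes (62.7 ± 2.49 against 56 ± 3.06 CPM, SD; adjusted p = 0.0163, edgeR), which was lost without CYR61 replicate 1, 2 or 3 (adjusted p of 0.0516 to 0.0598). Of 78 mitochondrial ribosomal protein genes, 0 passed under TMM and 1 fell under library size, with a median log2 fold change of 0.037 beside 0.05 for the cytosolic genes.

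Reads of ribosomal protein genes can be shared with processed pseudogenes. The deposited counts were fractional in every library for 64 of the 83 members. Rows annotated as ribosomal protein pseudogenes, 318 in the table, held counts equal to 8.24 to 9.31% of the members' counts, so the values of members with close copies are uncertain by how the authors' counting split such reads. Of 81 tested pseudogene rows, 0 rose and 2 fell under library size scaling, beside 3.5% and 6.2% of all genes. Under TMM 2 rose and 0 fell: Rpl10a-ps1 (93.2 ± 4.56 against 105 ± 9 CPM, SD; adjusted p = 0.0367, edgeR) and Rpl3-ps1 (72 ± 2.17 against 81.2 ± 9.07 CPM, SD; adjusted p = 0.0469, edgeR). Rpl10a-ps1 was lost without CYR61 replicate 1 or 3 or control replicate 2, 3, 4 or 5, and Rpl3-ps1 in all fits that left out a library except those without CYR61 replicate 3 or control replicate 6. Both kept positive log2 fold changes in every alternative setting (0.126 to 0.217 and 0.105 to 0.233). The 2 rows that fell under library size scaling were thus other pseudogenes. Rps12l1, a copy of Rps12, varied most, from 0 to 30.1 CPM in controls and with 20.7, 43.9, 31.3 and 46.7 CPM with CYR61 (adjusted p = 0.08, edgeR). Rps12 itself was 255 ± 14 against 265 ± 25.3 CPM (SD). In GENCODE M21, 19 members overlap an exon on the opposite strand, and whether counting used the strand is not given. Of 58 small nucleolar RNAs inside members, 3 could be tested and 0 passed.

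Outside the group, the genes whose log2 level most resembled the members' mean over the 11 libraries were Alg9, Sec13, Idh3b, Nudt19 and Elp2, with Pearson correlations of 0.949, 0.943, 0.911, 0.903 and 0.899 among 8578 genes ranked. These libraries share groups and scaling, so the correlations are a description. None of the 5 passed the test between groups; the lowest adjusted p was 0.115, for Nudt19 (edgeR).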

How the data were processed

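Ribosomal RNA was removed from total RNA and libraries were random-primed, per the labels' protocols. DRAGEN was used upstream, per the submitters' processing notes; the sources used here give neither its role nor a build or annotation. The authors deposited estimated counts per Ensembl gene, not normalized, and a table of their own comparison with log2 fold changes, p-values, scores and log2 CPM per library, for which the sources used here name no method. Repeated rows (287) were dropped and estimated counts rounded to whole numbers.

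All genes were fitted in R 4.3.3 with edgeR 4.0.16 (filterByExpr defaults, TMM factors, glmQLFit, glmQLFTest, two-sided, 7 control against 4 CYR61 libraries, no covariates), with Benjamini-Hochberg adjustment over 15135 genes and a threshold of 0.05. Standard errors are the fold change divided by the root of the F statistic. Alternatives used RLE, upper quartile or library size scaling, DESeq2 1.42.0, limma-voom (limma 3.58.1), other filters, a replicate block, GC content and length correction, and leaving out each library. The fit was tested on simulated data with 50 genes changed at each size, drawn from all genes tested. It recovered 14% of changes of 1.1-fold, 58% of 1.25-fold, 70% of 1.5-fold and 82% of 2-fold. Recovery among ribosomal protein genes alone was not simulated.

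Transcript lengths and overlaps came from GENCODE M21, matched by gene ID, which may not be the authors' annotation. The members and lists were chosen with earlier results of these data known. Named were called members, the highest and lowest per kb, paralog pairs, up to 4 genes of lowest p per list and the 5 genes most like the members; Rps9, Rpl13a, Rpl19, Rpl6, Rpl5, Rpl11, Rps6, Rps27a, Rps23, Rps16 and Rps12 were chosen after their values were seen. Some genes are counted but not reported by name here.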

Additional observations from a re-analysis of the deposited data

Results flagged for a closer look

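The 248 groups of 4 or 7 libraries examined covered 121 genes and the summed levels of members and of pseudogenes. Of these groups, 8 had 1 library far from the others, by the gap to its nearest neighbour relative to the group's range. About 1 in 20 groups would by chance, so the number flagged was not above that share. Among members, Rpl21 was 138 CPM in CYR61 replicate 1 against 159 to 164 in the other CYR61 libraries, and Rps27 was 72.0 CPM in CYR61 replicate 3 against 79.4 to 79.9. The pseudogene Rpl17-ps3 was also low in CYR61 replicate 1, at 22.1 CPM against 25.5 to 26.0. Eif3c was 219 CPM in CYR61 replicate 3 against 227 to 228, and 222 CPM in control replicate 7 against 206 to 213. Control replicate 7 also had Gas5 at 29.2 CPM against 31.2 to 32.1 and Mrpl27 at 19.7 CPM against 15.0 to 16.6. Snord15b was 1.48 CPM in CYR61 replicate 2 against 0.928 to 0.998.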

How the results depend on the processing

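The count of ribosomal protein genes higher with CYR61, 4, was 0 with library size scaling, with or without mitochondrial and ribosomal RNA genes, and 0 at an adjusted p under 0.01. It was 1 with upper quartile scaling, 2 with no filter, 2 with GC content and length correction and 7 with DESeq2. Leaving out each library gave 1 to 10: 10 without CYR61 replicate 1, 2 without CYR61 replicate 2 or 4, and 1 without control replicate 1, 3, 4 or 5 or CYR61 replicate 3. No alternative called a member lower. No pairing by replicate number was seen. Correlations of deviations were -0.0404 to 0.0363 for the same number and -0.0784 to 0.142 for different numbers. A shared source is not excluded, as the labels do not say what a replicate is. The replicate block on 8 libraries gave 7, the same 8 libraries unpaired 7, and the block with GC content and length correction 10. Over all genes, higher and lower calls were 529 and 938 with library size scaling and 477 and 163 at an adjusted p under 0.01. Library size without mitochondrial and ribosomal RNA genes gave 857 lower, and leaving out each library gave 583 to 903 higher and 205 to 469 lower, with 205 without CYR61 replicate 2. The members' median log2 fold change of 0.05 became 0.006 and 0.01 under the 2 library size scalings and 0.03 to 0.062 with a library left out. The summed share differed by 0.0191 percentage points, or 0.0788 with TMM scaling. The cause of these changes was not tested. The ratio of the highest to the lowest level per kb with the longest transcript, an alternative chosen after seeing the data, was 42.2. Depth limits Rpl10l, Rpl3l and Rpl39l, which had at most 2 counts in a library and could not be tested.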
